A study of Mus musculus with 9 samples.

Results

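The 41 genes described here repair broken DNA or signal its presence, and they are 41 of the 24062 genes in the count table, taken by name for their place in these pathways, with earlier results of these data known. They comprise 15 genes of homologous recombination, 10 Fanconi genes, 10 genes of break sensing and checkpoint signalling, and 6 genes of end joining. All 41 passed the filter on low counts. RNA was sequenced from C57BL/6 mouse embryonic fibroblasts, primary cells grown out of embryos, that had been driven into senescence with gamma rays and infected with a lentivirus carrying a short hairpin RNA at day 10. The groups are shRela-2 and shRela-1, independent hairpins against Rela, which encodes the p65 subunit of NF-kB, and shScr, a scrambled hairpin, each with 3 replicates. Irradiation, senescence and infection were thus common to every group, and the set holds neither an unirradiated nor an uninfected sample. The titles of the shScr samples name a dataset number and those of the hairpins against Rela do not, so that any batch that goes with it cannot be told apart from the hairpin. The labels do not say whether replicates came from separate cultures, and the p-values below cover the spread among these 9 libraries alone, part of which may be technical.

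Double-strand breaks are repaired mainly by end joining, which seals the ends directly and works throughout the cell cycle, or by homologous recombination, which copies the sister chromatid and is therefore tied to S and G2 phase. The Fanconi proteins unhook crosslinks between DNA strands and hand the resulting break to recombination. ATM and ATR are the kinases that sense breaks and stalled forks, they pass the signal to CHK2 and CHK1, and phosphorylated histone H2AX with its reader MDC1 marks the broken chromatin. Many recombination and Fanconi genes are E2F targets that are transcribed most in dividing cells, whereas cells that have become senescent after irradiation are known for a lasting damage signal.

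Libraries held 49774667 to 67963506 counts, and single members had 33 counts at the lowest and 3465 at the highest. Rela, the targeted gene, had 14.8, 13.5 and 13.4 CPM in shRela-2 (counts scaled to TMM-adjusted library totals), 14.1, 13.6 and 13.2 CPM in shRela-1 and 85.5, 83.2 and 86.8 CPM in shScr. All 6 hairpin samples thus lay far below the controls, at 16.3% of the shScr mean with shRela-2 and 16.0% with shRela-1, and the hairpins overlapped each other. Fibroblast markers such as Col1a1 and Pdgfra were all above 1 CPM, at 52313 to 55263 CPM summed over 10 genes in shRela-2, 59973 to 63111 in shRela-1 and 53324 to 58901 in shScr. All 12 macrophage and blood markers were also above 1 CPM, led by Lyz2, with sums of 381 to 586 CPM in shRela-2, 440.3 to 588 in shRela-1 and 446 to 645 in shScr. Sums of the 7 neural markers were 139 to 152 CPM in shRela-2, 72.5 to 82.8 in shRela-1 and 104 to 116 in shScr, mostly the tubulin gene Tubb3, with the glial and neural crest markers Sox10, Gfap and Olig2 under 1 CPM. Epithelial (7 genes) and endothelial (8 genes) markers summed to at most 38.7 and 12.0 CPM in a library. Of the epithelial markers 4 were under 1 CPM in shRela-2 and 3 in shRela-1 and shScr, with Epcam and Cdh1 among them each time. Of the endothelial markers 5 were under it in shRela-2 and 4 in shRela-1 and shScr, with Pecam1 and Cdh5 among them. The others reached 1 CPM. Highest were Krt19, at 11.6, 15.7 and 10.8 CPM in shRela-2, shRela-1 and shScr, and Egfl7, at 4.88, 2.80 and 4.42 CPM. The part of such cells in the results below was not tested, and in bulk RNA a smaller number of cells expressing a gene cannot be told apart from less RNA per cell.

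Levels of the 41 genes spanned 96.5-fold in shScr once divided by the joined length of all annotated exons. That length can exceed the transcripts present, so the order below depends in part on the annotation. In shScr H2afx, the histone variant that is phosphorylated at breaks, stood first at 18.6 ± 0.450 CPM per kb of exon (mean ± SD, n = 3), followed by Nbn, a subunit of the MRN complex that binds broken ends, at 7.53 ± 0.376. Next came Xrcc5, the Ku80 subunit that clasps DNA ends, at 6.70 ± 0.0899, and Rad50, the ATPase of MRN, at 6.06 ± 0.244 CPM per kb. The mean ± SD intervals of neighbours among these 4 did not overlap, whereas those of most neighbours further down did. At the other end were Bard1, the partner of Brca1, at 0.211 ± 0.0251, the strand-exchange motor Rad54l at 0.207 ± 0.0355, Fancd2, the Fanconi protein that is ubiquitinated at crosslinks, at 0.203 ± 0.0316, and the resection nuclease Exo1 at 0.193 ± 0.0157 CPM per kb, which do not differ beyond their spread. End-joining and sensing genes filled 14 of the first 20 places in this order, and recombination and Fanconi genes held 19 of the other 21.

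**Figure D1:**
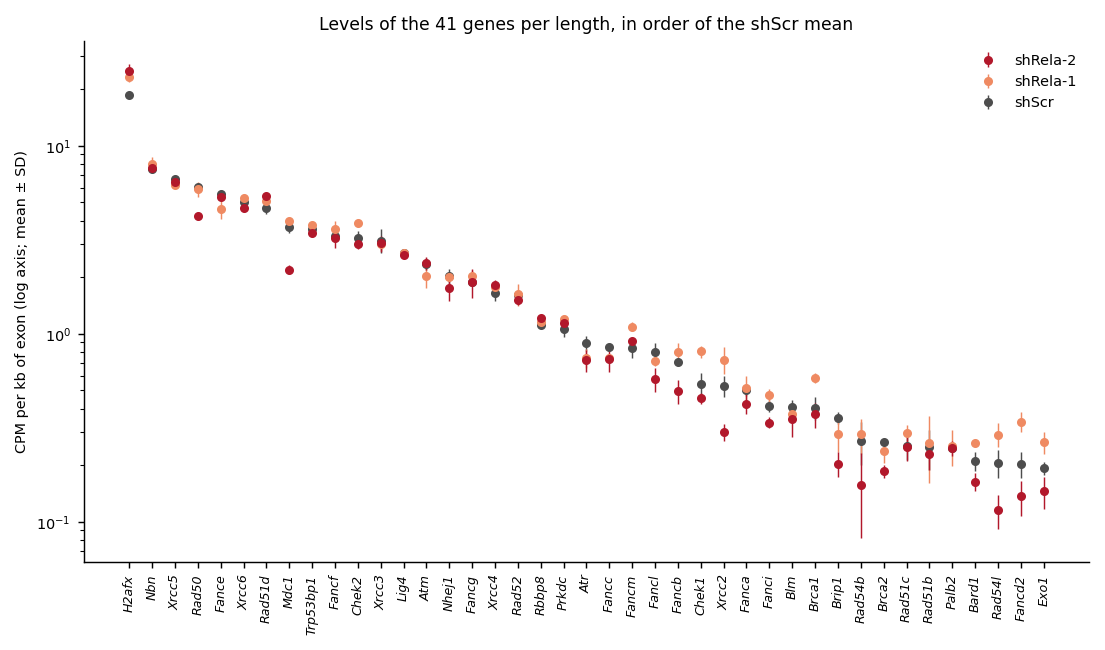
Levels of the 41 genes in CPM per kb of exon (log axis, mean ± SD, n = 3 per group), ordered by the shScr mean, with shRela-2 in dark red, shRela-1 in orange and shScr in grey. H2afx is the highest at 18.6 CPM per kb in shScr and Exo1 the lowest at 0.193, and the groups part most visibly among the genes of low level at the right and at Mdc1 and Rad50.

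The share of these genes called between the 2 hairpins, 36.6%, was no larger than the 39.9% of all genes, but every call went the same way. With shRela-2 against shScr, 9 of 41 fell and 2 rose, 11 calls in all, beside 30.9% of all genes called. With shRela-1 against shScr, 6 rose and 1 fell, 7 calls of 41 in all, beside 24.7% of all genes called. Compared directly, 15 members were lower with shRela-2 than with shRela-1 and 0 were higher by the quasi-likelihood test of edgeR, with p-values adjusted by Benjamini-Hochberg over all 15369 genes (2 were higher at an unadjusted p under 0.05, and 1 each by DESeq2 and limma voom). The background in that comparison was 19.9% of all genes lower and 20.0% higher (39.9% in all), and in the members 36.6% were lower. Against shScr the share that fell with shRela-2 was 21.95%, beside 15.4% of all genes, and the share that rose was 4.88%, beside 15.4%. With shRela-1, 14.6% of the members rose, close to the 12.3% of all genes, and 2.44% fell, beside 12.4%. The median log2 fold change of the members was -0.12 with shRela-2 (-0.0020 for all genes), 0.087 with shRela-1 (0.0026) and -0.19 between the hairpins (0.0045). In the direct comparison 33 of the 41 values were negative. When the replicate number was added to the model as a block, 2 members rose and 11 fell with shRela-2 (22.2% and 22.2% of all genes), and 9 rose and 3 fell with shRela-1 (20.4% and 18.9%). Between hairpins the block gave 2 members higher and 18 lower (25.8% and 26.1%). Both comparisons against shScr use the same control samples, so their values are given side by side only.

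**Figure D2:**
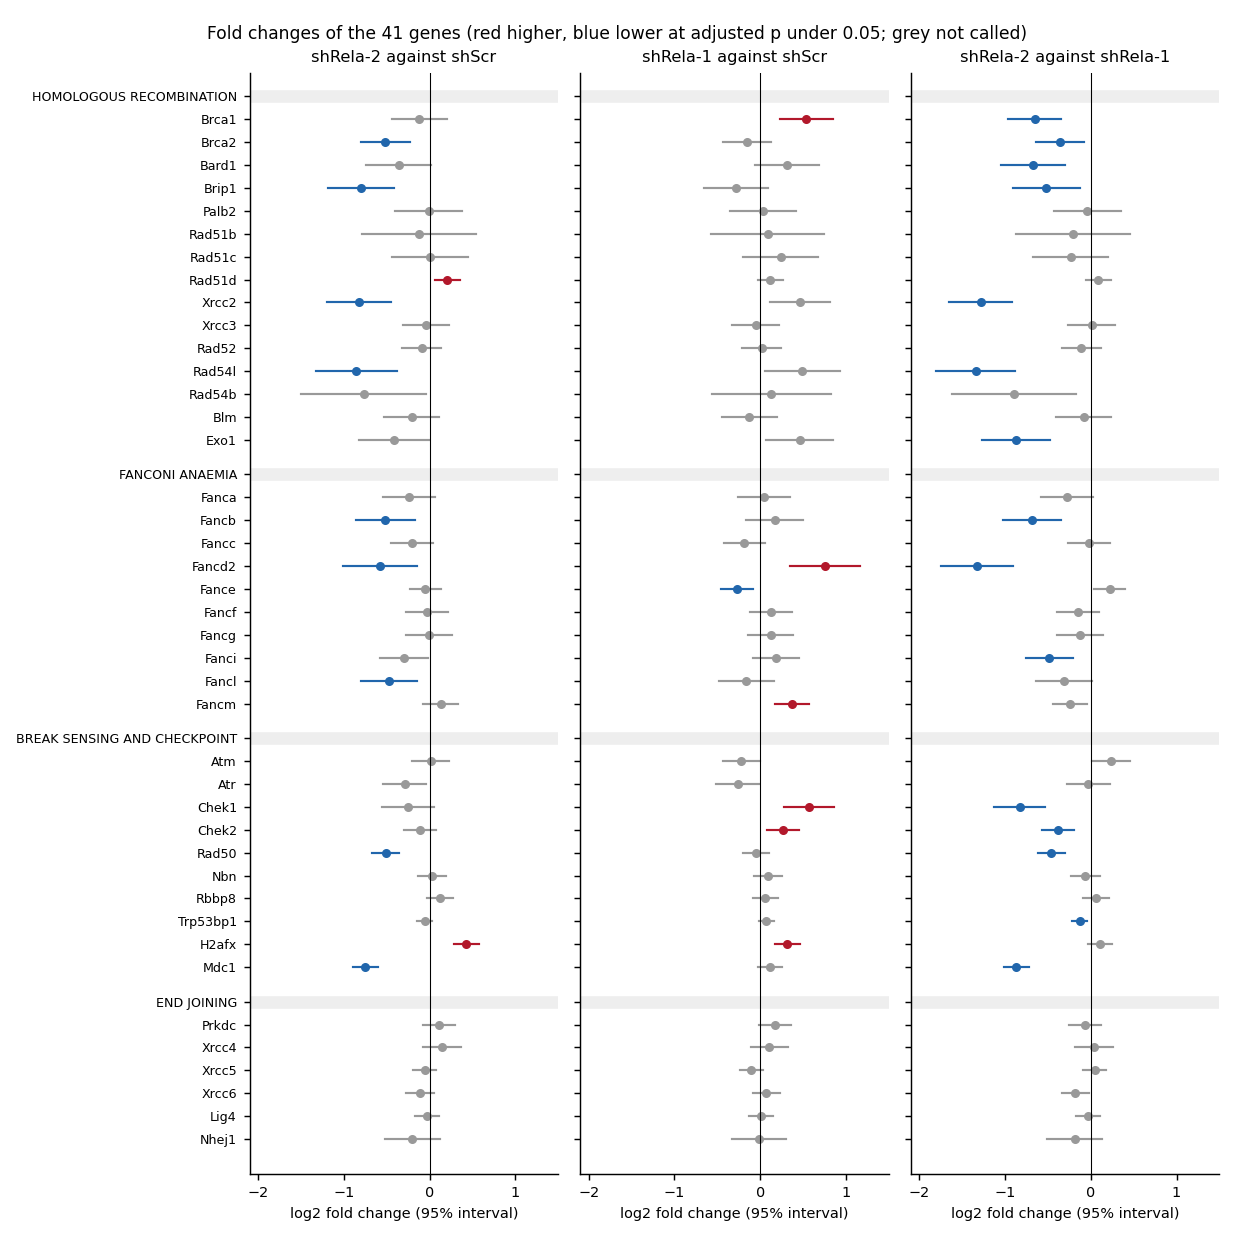
Log2 fold change (points) with its 95% interval (lines) of each of the 41 genes, by role, with a panel each for shRela-2 over shScr, shRela-1 over shScr and shRela-2 over shRela-1. Blue marks genes called lower and red genes called higher at an adjusted p under 0.05, grey those not called. The third panel holds 15 blue points and no red one, all of them outside end joining.

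The largest difference between the hairpins in absolute log2 terms was that of Rad54l, at -1.34, followed by Fancd2 at -1.33 and Xrcc2 at -1.28. The 15 members that differed had a median level of 2.66 CPM in shScr, ranging from 1.19 to 51.0 CPM, and the other 26 a median of 8.71 CPM, ranging from 0.936 to 25.7 CPM. Leaving out any one library left 12 to 16 members lower with shRela-2. The 12 calls that held without each of the 9 libraries in turn, and under the other settings tried, were those of Brca1, Bard1, Xrcc2, Rad54l, Exo1, Fancb, Fancd2, Fanci, Chek1, Chek2, Rad50 and Mdc1.

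Promoter windows, from 250 bases before to 50 bases after the transcription start, were matched by symbol for 31 of the 41 genes in RefSeq (build GRCm38.p6). A search on both strands used the E2F site forms TTTGGCGC, TTTCCCGC and TTTCGCGC, the sites of the factors that switch on genes of S phase. It found one for 7 of the 31 genes (22.6%), against 3.73% of the 11360 tested genes with a window and 2.12% of all 27025. The 7 genes were Bard1, Brca2, Chek2, Fancg, Mdc1, Rad51c and Xrcc6. Of these, 4 were lower with shRela-2 than with shRela-1 (median log2 difference -0.36). Of the 24 with a window and no such form 7 were lower (median -0.14), beside 19.9% of all genes. Xrcc2, Exo1, Fancd2 and Rad50, also lower with shRela-2 than with shRela-1, have no window and were not searched. Whether the forms go with the difference between hairpins was not tested. The cell cycle homology region forms TTTGAA and TTCGAA were found for 3 genes (9.68%, against 16.3% of tested genes) and CCAAT for 18 (58.1%, against 42.3%). GGNNTTTCC, the last letters of a common kappa-B site of NF-kB, was found for 6 (19.4%, against 7.12%). These were Atr, Chek2, Lig4, Rad51b, Rad51c and Rad52. Of these 6, Chek2 alone was called in a comparison between 2 groups by edgeR over all 9 samples without the replicate block. Such matches are descriptions of the letters and show no binding. The windows of the 4 genes that hold an E2F form and differed between the hairpins are printed 5′ to 3′ in the sense of the gene, with the form in capitals. In Mdc1 (chr17:35841248-35841547, plus strand) it begins 16 bases before the start, in Chek2 (chr5:110839733-110840032, plus strand) 152, in Brca2 (chr5:150522371-150522670, plus strand) 168 and in Bard1 (chr1:71102923-71103222, minus strand) 209. In Chek2 and Brca2 the form lies on the opposite strand.
Mdc1: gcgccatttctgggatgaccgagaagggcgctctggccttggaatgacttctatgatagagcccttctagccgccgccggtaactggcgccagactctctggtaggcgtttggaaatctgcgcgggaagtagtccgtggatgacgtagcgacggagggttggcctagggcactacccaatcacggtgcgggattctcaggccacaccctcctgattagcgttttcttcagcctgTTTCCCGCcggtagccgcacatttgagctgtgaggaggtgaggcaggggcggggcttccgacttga
Chek2: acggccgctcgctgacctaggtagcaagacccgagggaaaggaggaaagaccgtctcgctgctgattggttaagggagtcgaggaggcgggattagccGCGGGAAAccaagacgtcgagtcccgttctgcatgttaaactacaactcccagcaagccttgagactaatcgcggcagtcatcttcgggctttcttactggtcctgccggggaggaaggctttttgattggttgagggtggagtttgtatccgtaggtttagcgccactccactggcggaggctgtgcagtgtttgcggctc
Brca2: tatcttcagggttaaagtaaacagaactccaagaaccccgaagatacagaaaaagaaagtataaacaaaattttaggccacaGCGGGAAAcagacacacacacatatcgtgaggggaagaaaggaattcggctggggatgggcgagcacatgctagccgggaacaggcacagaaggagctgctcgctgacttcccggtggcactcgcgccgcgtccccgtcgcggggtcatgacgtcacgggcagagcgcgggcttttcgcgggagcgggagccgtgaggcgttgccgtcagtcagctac
Bard1: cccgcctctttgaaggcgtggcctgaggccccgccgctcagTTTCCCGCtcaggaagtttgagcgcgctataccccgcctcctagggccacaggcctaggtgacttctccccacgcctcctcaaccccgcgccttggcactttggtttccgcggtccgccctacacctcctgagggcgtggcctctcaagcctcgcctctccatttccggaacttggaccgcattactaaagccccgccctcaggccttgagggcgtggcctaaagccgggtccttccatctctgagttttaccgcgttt

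**Figure D3:**
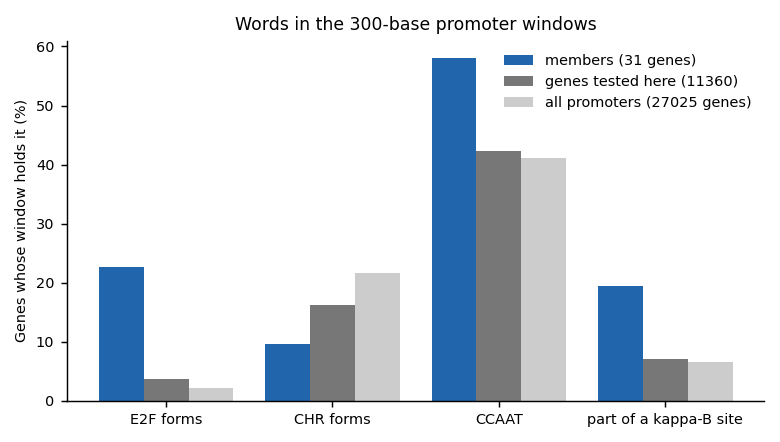
Share of genes whose promoter window holds each set of letters, in percent, for the 31 members with a window (blue), the 11360 genes tested here with a window (dark grey) and all 27025 genes of the promoter table (light grey). The E2F forms are in 22.6% of members, against 3.73% and 2.12%.

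Among the sensors and signal carriers, Mdc1 and Rad50 fell with shRela-2, Chek1 and Chek2 rose with shRela-1, and H2afx rose with both hairpins. Mdc1 (chr17:35841515-35859670 on the plus strand in mm10), the scaffold that reads phosphorylated H2AX, stood at 16.1, 15.5 and 17.3 CPM in shRela-2, 30.3, 29.7 and 29.2 CPM in shRela-1 and 28.2, 25.2 and 28.8 CPM in shScr (replicates 1 to 3, here and below). The shRela-2 samples lay far under the other 6, which fell into adjacent ranges. The log2 fold change was -0.75 ± 0.065 with shRela-2 (± SE of the fit; adjusted p = 1.80e-05) and 0.12 ± 0.063 with shRela-1 (adjusted p = 0.214), and the hairpins differed by -0.87 ± 0.064 (adjusted p = 2.46e-06). Rad50 (chr11:53649519-53707319 on the minus strand) had 22.1, 22.3 and 24.2 CPM in shRela-2, 28.6, 31.4 and 34.5 CPM in shRela-1 and 31.7, 31.9 and 34.1 CPM in shScr. Again the 3 shRela-2 samples were the lowest, while shRela-1 and shScr overlapped. It fell by 0.51 ± 0.071 with shRela-2 (adjusted p = 3.93e-04) and was at -0.048 ± 0.070 with shRela-1 (adjusted p = 0.681), a difference of -0.46 ± 0.071 (adjusted p = 4.21e-04). Nbn, which sits in the same complex, had 19.4 ± 0.980, 20.3 ± 1.72 and 19.1 ± 0.953 CPM in shRela-2, shRela-1 and shScr (mean ± SD, n = 3, here and below), and its 95% interval for shRela-2 against shScr, -0.14 to 0.19, did not reach the value of Rad50.

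**Figure D4:**
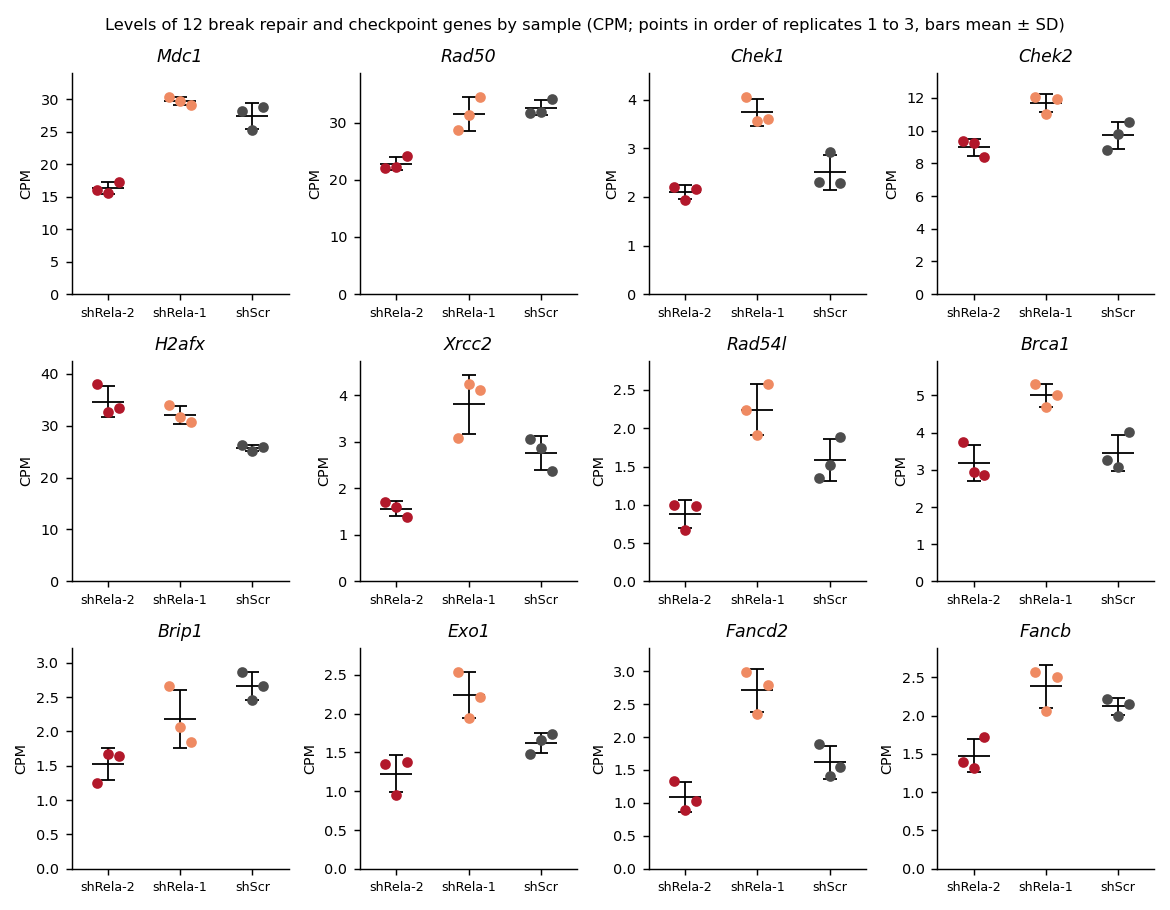
CPM in each sample (points, replicates 1 to 3 from left to right) with mean ± SD (black, n = 3) for 12 genes, in shRela-2, shRela-1 and shScr. The shRela-2 samples of Mdc1 lie at 15.5 to 17.3 CPM, under the 6 others at 25.2 to 30.3 CPM, and those of Fancd2, Rad54l and Xrcc2 lie lowest with shScr between the hairpins.

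Chek1 (chr9:36708482-36727065 on the minus strand), the kinase that halts the cycle when ATR is active, had 2.2, 1.95 and 2.17 CPM in shRela-2, 4.06, 3.56 and 3.60 CPM in shRela-1 and 2.31, 2.92 and 2.29 CPM in shScr. The shRela-1 samples were the highest, and shRela-2 lay just under shScr without overlap. Chek1 rose by 0.57 ± 0.13 with shRela-1 (adjusted p = 0.00980), its value with shRela-2 was -0.26 ± 0.14 (adjusted p = 0.193), and the difference between the hairpins was -0.83 ± 0.13 (adjusted p = 6.19e-04). Chek2, the kinase downstream of ATM, had 9.34, 9.22 and 8.37 CPM in shRela-2, 12.1, 11.0 and 12.0 CPM in shRela-1 and 8.83, 9.78 and 10.5 CPM in shScr, so that shRela-2 and shScr overlapped below shRela-1. It rose with shRela-1 (0.27 ± 0.085, adjusted p = 0.0432), a call that was lost without shRela-2 replicate 1 or 2, shRela-1 replicate 1, 2 or 3 or shScr replicate 1 or 2 (adjusted p = 0.0502 to 0.135), and also with library totals in place of TMM, without the filter on low counts and with only the 2 groups fitted (0.0541 to 0.0631). The hairpins differed by -0.38 ± 0.085 in Chek2 (adjusted p = 0.00466).

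H2afx (chr9:44334694-44336077 on the plus strand) was the only member called in the same direction with both hairpins, apart from Atr when the replicate block was added. It stood at 38.0, 32.5 and 33.3 CPM in shRela-2, 33.9, 31.6 and 30.6 CPM in shRela-1 and 26.3, 25.1 and 25.8 CPM in shScr. All 6 hairpin samples were above all 3 controls, and the hairpins overlapped each other. The rise was 0.43 ± 0.065 with shRela-2 (adjusted p = 6.89e-04) and 0.32 ± 0.065 with shRela-1 (adjusted p = 0.00513), with a difference between hairpins of 0.11 ± 0.064 (95% interval -0.033 to 0.25). Both calls held without each library in turn. An annotated microRNA gene overlaps 10.2% of its exon bases on the other strand.

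Of the other sensors, Trp53bp1, which encodes 53BP1 and shields ends from resection, was lower with shRela-2 than with shRela-1 by a small margin (-0.13 ± 0.041, adjusted p = 0.0271) at 49.0 ± 2.75, 53.6 ± 0.457 and 51.0 ± 0.407 CPM in shRela-2, shRela-1 and shScr. That call was lost without shRela-2 replicate 3 or shRela-1 replicate 1 or 2 (adjusted p = 0.0577 to 0.0871), and also with library totals in place of TMM and with only the 2 groups fitted (0.0509 to 0.133). Atm had 24.6 ± 1.91, 20.9 ± 2.77 and 24.4 ± 1.76 CPM in shRela-2, shRela-1 and shScr and passed no test in the fit over all 9 samples without the replicate block. With the block it fell with shRela-1 (adjusted p = 0.00216) and was higher with shRela-2 than with shRela-1 (adjusted p = 8.54e-04). Without shRela-1 replicate 3 both calls were also made (adjusted p = 0.0420 and 0.0222). The second was made as well without shRela-2 replicate 1 (0.0485) and with library totals in place of TMM (0.0455). Atr, the kinase of stalled forks, at 17.2 ± 2.32, 17.5 ± 2.01 and 21.0 ± 1.85 CPM in shRela-2, shRela-1 and shScr, was at -0.29 ± 0.11 with shRela-2 and -0.26 ± 0.11 with shRela-1 (adjusted p = 0.0782 and 0.123, or 8.28e-04 and 0.00244 with the block). With DESeq2 the value of Atr with shRela-2 also passed (adjusted p = 0.0365). Nbn and Rbbp8, which encodes the resection factor CtIP, were called in no comparison.

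In homologous recombination, Xrcc2, Rad54l, Brip1 and Brca2 fell with shRela-2, Rad51d rose with it, and Brca1 rose with shRela-1. Xrcc2 (chr5:25689812-25705825 on the minus strand), which acts in strand exchange during recombination, had 1.72, 1.59 and 1.39 CPM in shRela-2, 3.08, 4.24 and 4.11 CPM in shRela-1 and 3.07, 2.86 and 2.37 CPM in shScr. The 3 groups did not overlap, with shScr in the middle, but shRela-1 replicate 1 and shScr replicate 1 were nearly equal (3.08 and 3.07 CPM). Its log2 fold changes were -0.82 ± 0.17 with shRela-2 (adjusted p = 0.00397), 0.46 ± 0.16 with shRela-1 (adjusted p = 0.0573, or 0.0138 with the replicate block, 0.0386 with DESeq2 and 0.0213 without shRela-1 replicate 1) and -1.28 ± 0.17 between the hairpins (adjusted p = 1.33e-04). Rad54l (chr4:116094264-116123690 on the minus strand) showed the same order of groups, at 1.0, 0.676 and 0.979 CPM in shRela-2, 2.24, 1.92 and 2.58 CPM in shRela-1 and 1.36, 1.53 and 1.89 CPM in shScr. Against shScr it was at -0.85 ± 0.21 with shRela-2 (adjusted p = 0.0108) and 0.49 ± 0.20 with shRela-1 (adjusted p = 0.0977, or 0.0263 with the block), and the hairpins differed by -1.34 ± 0.21 (adjusted p = 4.48e-04). Its exons share 15.4% of their bases with Lrrc41 on the opposite strand, a gene that was higher with shRela-2 than with shRela-1 (log2 difference 0.19).

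Brca1 (chr11:101488764-101551955 on the minus strand), which directs resected ends to recombination, had 3.74, 2.94 and 2.85 CPM in shRela-2, 5.30, 4.68 and 5.02 CPM in shRela-1 and 3.25, 3.08 and 4.01 CPM in shScr. The shRela-1 samples stood above the rest, while shRela-2 and shScr overlapped. It rose with shRela-1 (0.54 ± 0.14, adjusted p = 0.0180), was at -0.12 ± 0.14 with shRela-2 (adjusted p = 0.586), and differed by -0.65 ± 0.14 between the hairpins (adjusted p = 0.00370). The rise was not called without shRela-1 replicate 1 or 3 or shScr replicate 1 or 2 (adjusted p = 0.0522 to 0.0701). Bard1, its partner in the ubiquitin ligase, was lower with shRela-2 than with shRela-1 (-0.67 ± 0.17, adjusted p = 0.00905) at 0.927 ± 0.106 CPM in shRela-2, 1.48 ± 0.0399 CPM in shRela-1 and 1.19 ± 0.142 CPM in shScr. Brip1, the helicase that binds BRCA1 and is also known as FANCJ, had 1.25, 1.67 and 1.64 CPM in shRela-2, 2.66, 2.06 and 1.84 CPM in shRela-1 and 2.87, 2.46 and 2.65 CPM in shScr. The shRela-2 samples were the lowest, with shRela-1 and shScr overlapping. Brip1 fell with that hairpin (-0.80 ± 0.18, adjusted p = 0.00565), against -0.28 ± 0.17 with shRela-1 (adjusted p = 0.269). The difference between hairpins in Brip1, -0.52 ± 0.18 (adjusted p = 0.0379), was not called without shRela-2 replicate 1 or 3, shRela-1 replicate 1 or 2 or shScr replicate 3 (adjusted p = 0.0559 to 0.146), and also with limma voom, with library totals in place of TMM and with only the 2 groups fitted (0.0511 to 0.0655).

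Exo1 had 1.35, 0.949 and 1.37 CPM in shRela-2, 2.54, 1.95 and 2.22 CPM in shRela-1 and 1.48, 1.66 and 1.73 CPM in shScr, in 3 ranges that did not overlap. The hairpins differed by -0.87 ± 0.18 (adjusted p = 0.00291), and neither passed against shScr, at -0.41 ± 0.18 with shRela-2 and 0.46 ± 0.18 with shRela-1 (adjusted p = 0.119 and 0.0846, the second 0.0395 with the block). Brca2, which acts in strand exchange, fell with shRela-2 (-0.52 ± 0.13, adjusted p = 0.0106) to 2.53 ± 0.204 CPM, with 3.25 ± 0.433 CPM in shRela-1 and 3.62 ± 0.0914 CPM in shScr. Its difference between hairpins, -0.36 ± 0.13 (adjusted p = 0.0448), was lost without shRela-2 replicate 1, 2 or 3, shRela-1 replicate 1 or 3 or shScr replicate 1, 2 or 3 (adjusted p = 0.0518 to 0.142), and also with DESeq2, with limma voom, with library totals in place of TMM, without the filter on low counts and with only the 2 groups fitted (0.0518 to 0.0785). Rad51d, a recombination factor that works with Xrcc2, rose with shRela-2 (0.20 ± 0.066, adjusted p = 0.0391) to 20.1 ± 0.483 CPM, against 17.4 ± 1.34 CPM in shScr, a call lost without shRela-2 replicate 1, 2 or 3, shRela-1 replicate 1 or shScr replicate 1 or 3 (adjusted p = 0.0514 to 0.124), and also without the filter on low counts and with only the 2 groups fitted (0.0536 to 0.0635). Rad54b, a relative of Rad54l, narrowly missed the threshold between hairpins (-0.90 ± 0.33, adjusted p = 0.0502) and passed with the block (0.00555), without shRela-2 replicate 3 (0.00777), without shScr replicate 1 (0.0439), and with DESeq2, limma voom or no filter on low counts (0.0218 to 0.0419). Against shScr with shRela-2 it was at -0.77 ± 0.33 (adjusted p = 0.106, or 0.0203 with the block and 0.0172 without shRela-2 replicate 3). It shares 35.8% of its exon bases with Fsbp on the same strand. Palb2, Rad51b, Rad51c, Xrcc3, Rad52 and Blm were called in no comparison, with log2 differences between hairpins from -0.24 for Rad51c to 0.010 for Xrcc3.

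Fancd2 was the only member that rose with one hairpin and fell with the other, although Xrcc2 and Rad54l did so as well with the replicate block, and Xrcc2 also with DESeq2 and without shRela-1 replicate 1. This gene (chr6:113531682-113597017 on the plus strand) encodes the protein whose ubiquitination switches the Fanconi pathway on. It had 1.33, 0.885 and 1.03 CPM in shRela-2, 3.0, 2.35 and 2.79 CPM in shRela-1 and 1.89, 1.41 and 1.54 CPM in shScr, 3 ranges that did not overlap, with shScr between the hairpins. The log2 fold change was -0.58 ± 0.20 with shRela-2 (adjusted p = 0.0465) and 0.75 ± 0.18 with shRela-1 (adjusted p = 0.0129). The hairpins differed by -1.33 ± 0.19, with a 95% interval of -1.75 to -0.91 (adjusted p = 2.68e-04). The fall was lost without shRela-2 replicate 2 or 3, shRela-1 replicate 1, 2 or 3 or shScr replicate 1 or 3 (adjusted p = 0.0507 to 0.157), and also with limma voom, with library totals in place of TMM, without the filter on low counts and with only the 2 groups fitted (0.0505 to 0.0770). The rise was lost without shScr replicate 2 or 3 (adjusted p = 0.0512 to 0.0524). The difference between hairpins held under all of these.

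Fanci, which pairs with FANCD2, was at 2.08, 1.83 and 1.92 CPM in shRela-2, 2.59, 2.60 and 2.97 CPM in shRela-1 and 2.37, 2.24 and 2.58 CPM in shScr, and lay lowest in shRela-2. The hairpins differed by -0.48 ± 0.12 (adjusted p = 0.0103), with -0.30 ± 0.13 for shRela-2 and 0.18 ± 0.12 for shRela-1 against shScr (adjusted p = 0.0997 and 0.324). Polg overlaps 16.0% of its exon bases on the other strand and was at -0.016 between the hairpins. Against shScr Polg rose with both, by 0.25 with shRela-2 and 0.26 with shRela-1 (adjusted p = 0.00165 and 0.00142). Fancb, a subunit of the Fanconi core ligase, had 1.39, 1.32 and 1.73 CPM in shRela-2, 2.58, 2.06 and 2.51 CPM in shRela-1 and 2.21, 2.0 and 2.15 CPM in shScr, and here too the shRela-2 samples were the lowest. Its decrease with that hairpin was called (-0.52 ± 0.15, adjusted p = 0.0271) and the hairpins differed by -0.69 ± 0.15 (adjusted p = 0.00462). The fall in Fancb was lost without shRela-2 replicate 1 or 2 or shScr replicate 1 or 3 (adjusted p = 0.0727 to 0.0981). Fancl, the ligase subunit that carries the RING domain, fell with shRela-2 (-0.47 ± 0.15, adjusted p = 0.0331) to 1.94 ± 0.282 CPM, against 2.69 ± 0.325 CPM in shScr, and this was lost without shRela-2 replicate 1 or 2 or shScr replicate 2 or 3 (adjusted p = 0.0821 to 0.122), and also with only the 2 groups fitted (0.0573).

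Fancm, a DNA translocase that recruits the core complex, had 9.84, 9.43 and 9.56 CPM in shRela-2, 11.3, 10.8 and 12.1 CPM in shRela-1 and 7.78, 8.76 and 9.81 CPM in shScr. It was highest in shRela-1 and rose with that hairpin (0.37 ± 0.090, adjusted p = 0.0125), while shRela-2 and shScr overlapped (0.13 ± 0.091, adjusted p = 0.333). Between hairpins it was at -0.25 ± 0.090 (adjusted p = 0.0517, or 0.0109 with the block, 0.0300 without shScr replicate 1 and 0.0364 without shScr replicate 3), and it also passed with DESeq2, limma voom and only the 2 groups fitted (0.0306 to 0.0409). Fance, a subunit that bridges the core complex to FANCD2, fell with shRela-1 (-0.27 ± 0.082, adjusted p = 0.0368) to 14.7 ± 1.64 CPM, against 17.7 ± 0.999 CPM in shScr. That call was lost without shRela-2 replicate 2, shRela-1 replicate 2 or 3 or shScr replicate 1, 2 or 3 (adjusted p = 0.0510 to 0.126), and also with only the 2 groups fitted (0.0664). Between hairpins Fance was at 0.22 ± 0.083 (adjusted p = 0.0576, or 0.00879 with the block, 0.00729 without shRela-1 replicate 1, and 0.0243 to 0.0454 with library totals, DESeq2 or limma voom). The core subunits Fanca, Fancc, Fancf and Fancg were called in no comparison, with values between hairpins of -0.28 ± 0.14, -0.023 ± 0.11, -0.15 ± 0.11 and -0.12 ± 0.12. Fanca passed between hairpins without shRela-1 replicate 2 (adjusted p = 0.0379), and Fancc fell with shRela-2 without shRela-2 replicate 3 (adjusted p = 0.0316).

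None of the 6 end-joining genes was called in any comparison by DESeq2 or limma voom (0 each). The same held for edgeR over all 9 samples without the replicate block. Before adjustment 1 of them, Xrcc6, had an edgeR p under 0.05, in the comparison of the hairpins. Xrcc6, which encodes the Ku70 subunit, had 22, 20.2 and 20.3 CPM in shRela-2, 24.8, 23.6 and 22.3 CPM in shRela-1 and 23.3, 20.4 and 23.7 CPM in shScr, and shRela-2 lay just under shRela-1. The hairpins differed in Xrcc6 by -0.18 ± 0.072 (adjusted p = 0.0700, or 0.0132 with the block and 0.0424 without shScr replicate 2). Its Ku80 partner Xrcc5 had 15.7, 17.7 and 16.0 CPM in shRela-2, 16.2, 15.7 and 15.9 CPM in shRela-1 and 17.3, 16.9 and 17.2 CPM in shScr, with a difference of 0.048 ± 0.061 (95% interval -0.087 to 0.18). Prkdc, the DNA-PK catalytic subunit that Ku recruits, had 16.2, 15.1 and 13.7 CPM in shRela-2, 15.1, 15.5 and 16.6 CPM in shRela-1 and 12.6, 14.3 and 14.8 CPM in shScr and a difference of -0.070 ± 0.084 (95% interval -0.26 to 0.12). The hairpin groups overlapped in both. Nhej1, the ligation cofactor XLF, stood at 1.74, 1.88 and 2.30 CPM in shRela-2, 2.35, 2.12 and 2.27 CPM in shRela-1 and 2.07, 2.48 and 2.24 CPM in shScr, also with overlap, and its difference of -0.19 ± 0.14 had a wider 95% interval of -0.50 to 0.13. The ligase Lig4 and its cofactor Xrcc4 differed by -0.036 ± 0.063 (95% interval -0.18 to 0.10) and 0.037 ± 0.098 (95% interval -0.18 to 0.25). Against shScr the 6 values ran from -0.20 to 0.14 with shRela-2 and from -0.10 to 0.18 with shRela-1. Whether the end-joining genes differ as a group from the recombination genes was not tested.

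Averaged over both hairpins against shScr, H2afx (0.37 ± 0.057) and Fancm (0.25 ± 0.079) rose, and Brip1 (-0.54 ± 0.15), Brca2 (-0.34 ± 0.11), Mdc1 (-0.32 ± 0.055) and Rad50 (-0.28 ± 0.060) fell (adjusted p from 0.00112 for H2afx to 0.0466 for Brca2). These are 4.88% and 9.76% of the members, beside 10.7% of all genes higher and 12.2% lower. With the 6 hairpin samples treated as a single group, whose spread then includes the gap between hairpins, H2afx was the one member still called (adjusted p = 0.0262). Over all genes 440 calls were left, against 3507 with the hairpins fitted apart. The average of Fancm was lost without shRela-2 replicate 1, 2 or 3, shRela-1 replicate 1, 2 or 3 or shScr replicate 1 or 2 (adjusted p = 0.0504 to 0.168), and also without the filter on low counts (0.0535), as was that of Brca2 without shRela-2 replicate 1, 2 or 3, shRela-1 replicate 1 or 2 or shScr replicate 1, 2 or 3 (adjusted p = 0.0509 to 0.136), and also without the filter on low counts (0.0656). That of Brip1 was lost without shScr replicate 1 or 3 (adjusted p = 0.0762 to 0.0844). Members added on the average were Fance without shRela-1 replicate 1 (adjusted p = 0.0272), Fancc without shRela-2 replicate 3 (0.0420), and Atr without shRela-1 replicate 3 (0.0417), with DESeq2 (0.0248) and with limma voom (0.0495), all lower. With the replicate block 3 members rose and 7 fell on this average, beside 17.8% and 19.7% of all genes, the additions being Rad51d (0.0228) among the higher and Atr, Fance and Fancl (3.97e-04 to 0.0420) among the lower.

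The same comparison was made for other genes of these pathways. Of 24 other recombination and resection genes, 14 were lower with shRela-2 than with shRela-1 and 3 were higher (58.3% and 12.5%, beside 19.9% and 20.0% of all genes; median log2 difference -0.45, against 0.0045). Examples were Rpa3 (-1.52 ± 0.12) and Rpa1 (-1.03 ± 0.038), subunits of the protein that coats single strands, and Sfr1 (-0.42 ± 0.053), a recombination cofactor. In 14 other Fanconi pathway genes 5 were lower and 1 higher (35.7% and 7.14%), among them Usp1, which removes ubiquitin from FANCD2 (-0.71 ± 0.064), the polymerase gene Rev3l (-0.32 ± 0.058) and the nuclease gene Ercc4 (0.27 ± 0.051). Of 23 other sensing and checkpoint genes 10 were lower and 3 higher (43.5% and 13.0%), for example the mitosis-inhibiting kinase Wee1 (-1.22 ± 0.081), the fork protector Tipin (-0.81 ± 0.087) and the clamp loader Rad17 (0.43 ± 0.051). The 12 other end-joining genes divided into 2 lower and 3 higher (16.7% and 25.0%), with a median of -0.0048, including the ligases Lig1 (-0.68 ± 0.094) and Lig3 (0.38 ± 0.040) and the phosphodiesterase gene Tdp1 (0.76 ± 0.075). Over the genes named from these 4 lists the adjusted p ran from 2.64e-08 for Rpa1 to 0.00177 for Ercc4.

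Of 30 genes of cell proliferation, 25 (83.3%) were lower with shRela-2 than with shRela-1, beside 19.9% of all genes. Higher were 0 by edgeR, beside 20.0% of all genes (0 also at an unadjusted p under 0.05 and by DESeq2 and limma voom). The median log2 difference was -0.73. Against shScr 17 fell and 1 rose with shRela-2 (56.7% and 3.33%, beside 15.4% and 15.4% of all genes). With shRela-1, 13 rose (43.3%, beside 12.3% of all genes) and 0 fell (beside 12.4%). Lower with shRela-1 were 1 at an unadjusted p under 0.05, 1 by DESeq2 and 0 by limma voom. Mcm3, a subunit of the replication helicase, had 13.3 ± 1.0, 28.0 ± 0.861 and 21.0 ± 0.354 CPM in shRela-2, shRela-1 and shScr, and the topoisomerase gene Top2a had 17.9 ± 1.51 CPM in shRela-2, 36.8 ± 2.66 in shRela-1 and 25.7 ± 0.927 in shScr. Ccna2, the cyclin of S phase and G2, stood at 5.55 ± 0.124 CPM in shRela-2, 11.2 ± 1.13 in shRela-1 and 8.11 ± 0.196 in shScr. The summed level of the 30 genes was 491, 456 and 485 CPM in the shRela-2 replicates, 704, 632 and 646 CPM in shRela-1 and 571, 534 and 540.0 CPM in shScr, without overlap between groups. The part of dividing cells in the values of the recombination, Fanconi and checkpoint genes was not tested.

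**Figure D5:**
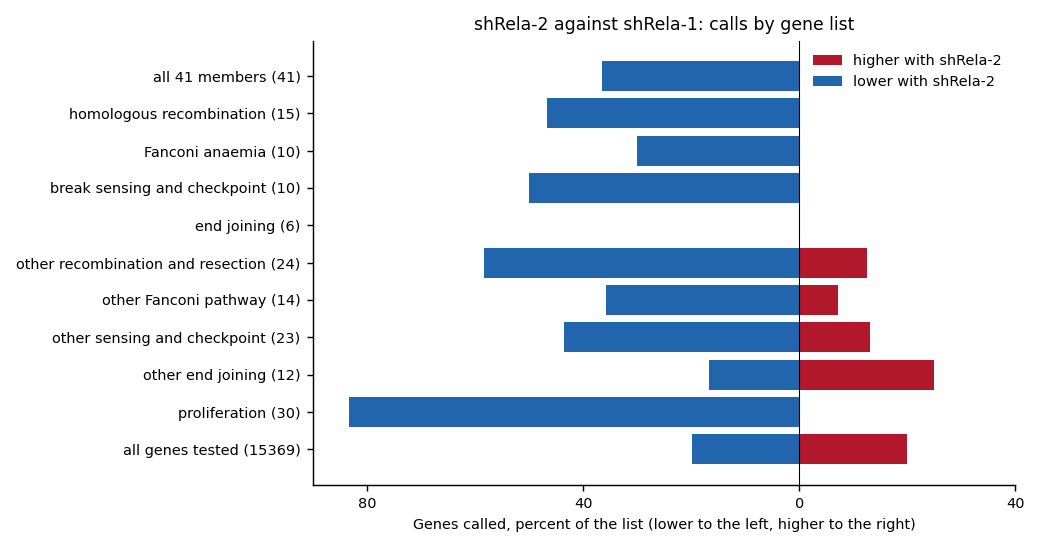
Share of each gene list called lower (blue, to the left) or higher (red, to the right) with shRela-2 than with shRela-1, in percent, with the number of genes tested in parentheses. Lower calls make up 46.7% of recombination genes, 5 of the 10 sensing and checkpoint genes and 83.3% of proliferation genes, against 19.9% of all genes tested.

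Reads were counted from a library type that does not keep the strand, so reads of a member and of a gene on the opposite strand cannot be told apart where exons overlap. In the GENCODE annotation of this build 19 of the 41 members share exon bases with another gene, and 9 share over 10% of them. Of the 15 members that differed between hairpins, Rad54l, Fanci and Trp53bp1 share over 10% with a counted gene, which for Trp53bp1 is Tubgcp4 (15.04%, 0.018 between hairpins). Fancf shares 14.96% with Gas2, which was lower with shRela-2 than with shRela-1 (log2 difference -0.82), while Fancf itself was at -0.15 ± 0.11. Fancl shares 13.7% with Vrk2 and Fanca 10.5% with Zfp276, neither of which was called in any comparison. The part of reads from these partners was not tested.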

How the data were processed

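RNA-seq counts per gene were deposited by the authors as 1 table of raw counts for 9 samples and 24062 genes. Tools listed in the submitters' processing notes are featureCounts 1.4.6, Subread, TopHat2 2.0.14 and Bowtie2 2.2.6, with the build mm10 and no roles; per the labels' protocols, libraries were made with TruSeq v2, which does not keep the strand. Hairpin sequences were not used here.

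Genes were filtered with filterByExpr (15369 kept), scaled by TMM and fitted over all 9 samples with edgeR 4.0.16 in R 4.3.3 (glmQLFit, glmQLFTest). P-values were Benjamini-Hochberg adjusted over all tested genes in each comparison, and a gene was called at an adjusted p under 0.05. Totals of 49774667 to 67963506 counts set the precision; the lowest member count was 33. CPM (counts scaled to a common library total) use TMM-scaled totals, and CPM per kb divide by the union of exons in GENCODE vM21. Promoters came from RefSeq (GRCm38.p6).

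The 41 members and the other lists were chosen with earlier results of these data known. Values in every sample are given for Rela, for the 4 members of each role with the smallest p between hairpins, for members called alike with both hairpins, and for called members among the 5 largest changes of a hairpin; of each other list, the 3 genes with the smallest p between hairpins are named. Alternatives were DESeq2 1.42.0, limma 3.58.1 voom, RLE factors, library totals, no filter, only the 2 groups compared, a replicate block, each library left out in turn, and, chosen after seeing the data, both hairpins as 1 group. Replicate numbers of the titles were checked for pairing. Deviations from group means correlated at 0.189 to 0.415 in the 9 same-numbered pairs and at -0.306 to 0.0459 in the 18 others. The numbers were thus taken to pair the samples, but only the replicate block uses this pairing. The main fit leaves it out, as do all calls, SE and intervals given without mention of the block. No 2 libraries of the same group agreed within sampling noise, and pairs across groups were not compared in this way. In chi-square per degree of freedom over genes, shScr replicate 2 stood at 112 against shScr replicate 1 and 109 against shScr replicate 3. The other pairs within a group ran from 11.9 to 34.4. That library is part of both comparisons against shScr and of the average. The code was tested on simulated counts. A few genes of the lists are not reported here by name.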

Additional observations from a re-analysis of the deposited data

Results flagged for a closer look

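In 15 of the 41 genes the difference between the hairpins itself passed edgeR's test with Benjamini-Hochberg adjustment, and each was lower with shRela-2 than with shRela-1. These are 36.6% of the genes, beside 39.9% of all genes called in that comparison, 19.9% lower and 20.0% higher. In recombination the log2 differences were -1.34 for Rad54l, -1.28 for Xrcc2, -0.87 for Exo1, -0.67 for Bard1, -0.65 for Brca1, -0.52 for Brip1 and -0.36 for Brca2. Among Fanconi genes they were -1.33 for Fancd2, -0.69 for Fancb and -0.48 for Fanci. The sensing and checkpoint genes gave -0.87 for Mdc1, -0.83 for Chek1, -0.46 for Rad50, -0.38 for Chek2 and -0.13 for Trp53bp1. Rela itself stood at 13.9 ± 0.768 CPM with shRela-2 and 13.6 ± 0.487 CPM with shRela-1 (SD, n = 3 each). The cause of the differences was not tested.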

How the results depend on the processing

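No log2 fold change that was called changed sign under any alternative tried, and 12 of the 15 calls between hairpins, 7 of the 11 with shRela-2 and 3 of the 7 with shRela-1 held under every alternative. With 1 library left out at a time, calls with shRela-1 numbered 3 to 6 higher and 0 to 1 lower, with shRela-2 1 to 2 higher and 6 to 10 lower, on the average 1 to 2 higher and 2 to 5 lower, and between hairpins 0 to 1 higher and 12 to 16 lower. The 3 higher calls with shRela-1 were those left without shScr replicate 2. With the replicate block, which follows the pairing, lower calls numbered 3 with shRela-1 and 7 on the average. Between hairpins 2 members, Fance and Atm, were then higher with shRela-2 than with shRela-1, and the block removed no call. Over all genes it gave 6034 calls with shRela-1, 5763 on the average and 7974 between hairpins. Fitting only the 2 groups compared gave 0 lower calls with shRela-1 and 1 higher with shRela-2 (3491 and 4561 genes called in all). No filter on low counts gave 1 higher call with shRela-2 and 1 on the average (4504 and 3310 in all). Members higher with shRela-2 than with shRela-1 numbered 1 with DESeq2, 1 with limma voom and 2 with library totals. Fitting both hairpins as 1 group left 1 higher and 0 lower calls on the average, a setting that adds the difference between hairpins to the spread. It left 440 calls over all genes. Fitting only the groups compared was not run for the average, which uses all 9 samples. The causes of the other shifts were not tested. Rad54b and Rad51b had the widest intervals between hairpins, and 3 samples a group limit what can be called.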

Other observations

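Words of 7 letters in the longest 3′ UTR of each gene were ranked over 13878 tested genes with a UTR. The rank followed the mean log2 fold change of genes that hold a word minus that of genes without it, lowest first. Only words held by at least 500 genes were ranked. The ranking is a description with no test, since words were ranked on the same values. With shRela-2 against shScr the first was GAAGCTA, held by 10.1% of genes, whose median log2 fold change was -0.16, against 0.011 in genes without it. With shRela-1 against shScr it was GGTGTAA, held by 6.38% of genes, with medians of -0.18 and 0.0099. Of the 9 members that fell with shRela-2, 0 hold GAAGCTA, and 1, Xrcc2, holds one of the 3 first words of that ranking (the second, TGAAGCT). The members that hold GAAGCTA are Rad52, Rad54b, Exo1, Rbbp8 and Lig4, none of them called against shScr with shRela-2 in the fit over all 9 samples without the replicate block (Rad54b passed with the block, adjusted p = 0.0203, and without shRela-2 replicate 3, 0.0172, in edgeR). Fance, the member that fell with shRela-1, holds none of the first 3 words of the shRela-1 ranking, and Brca2 and Rad51c hold GGTGTAA. Hairpin sequences were not used here, and the part of these words in the members' values was not tested.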
